A study of Mus musculus with 3 samples.

Results

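The 34 genes described here encode the enzymes and transporters of glycolysis, from glucose entry to lactate export, and a set of genes that cells switch on when oxygen is low. They were chosen by name from pathway knowledge, with earlier results of these data known. Each of the 34 was found in all 3 libraries, out of 24357 gene symbols in the series. They were followed across the cell classes of inflamed knee synovium from female wild type C57BL/6 mice, aged 8 weeks, in which arthritis had been induced. The mice received collagen (100 µg on day 0), then an antibody injection (1 mg on day 21) and lipopolysaccharide (day 22), a sequence known as collagen and antibody-induced arthritis that inflames the joints. The 3 libraries, replicates 1 to 3, formed 1 group, each held the pooled synovium of 2 mice, and no untreated group was analysed here, so all comparisons are between cell classes of the same arthritic joints. The p-values therefore measure how far the difference between 2 classes varied over 3 pools of mice, and not over single mice. Each fit left 2 residual degrees of freedom per gene, so the spread used for a gene was drawn largely from other genes.

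Glycolysis splits glucose into pyruvate in the cytosol and yields ATP without oxygen. Pyruvate is either reduced to lactate by lactate dehydrogenase and exported, or enters the mitochondria through pyruvate dehydrogenase and feeds the tricarboxylic acid (TCA) cycle. When oxygen falls, the transcription factor subunit HIF-1α (gene Hif1a) escapes hydroxylation by the prolyl hydroxylases (EGLN enzymes), pairs with ARNT and binds a short core motif near genes for glucose transporters, glycolytic enzymes, lactate export, mitophagy and collagen hydroxylation. HIF-1α is set mainly at the protein level, so the Hif1a transcript is not a readout of its activity.

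Each library held 99782608 to 116125707 UMIs, which are counts of single captured transcripts, over 11602 to 15263 barcodes. Cells were assigned to classes by marker genes that include none of the 34 genes, and the names carry the ending "-like" because they rest on RNA alone. Of the cells left after quality filters and doublet removal, 34430 (93.4%) received a class, and 95.6% of these received the same class from clusters. Levels are given in CPM, the UMIs of a gene per 1000000 UMIs of its class in a library. After a level or a share, ± is the SD of the 3 libraries. After a log2 fold change, ± is an SE worked back from the test statistic. That SE therefore rests largely on the spread drawn from other genes. In 12 broad classes every library had at least 20 cells. Among the 10 genes that led each of these classes, 3 to 6 were markers of its own list, except for fibroblast-like cells, where Dcn was the 1 such marker and the cartilage proteoglycan gene Acan was among the leaders. Free RNA from broken cells was estimated, in classes other than neutrophils, from the neutrophil genes S100a8 and S100a9. It was assumed to have the make-up of all UMIs of the library. The level it could then give is the free RNA limit, and 20 of 340 gene and class pairs lay at or under it. This limit does not hold for genes whose RNA was freed in another proportion than S100a8 and S100a9. Neutrophil-like classes had no such limit and no free RNA was subtracted from them. The lining fibroblast marker Prg4 was at 829 CPM in neutrophil-like, 578 CPM in monocyte/macrophage-like and 10055 CPM in fibroblast-like cells. It was at 2146 CPM in natural killer cell-like, 1186 CPM in T cell-like and 1161 CPM in adipocyte-like cells. Low levels in neutrophil-like cells, and in these other classes, may therefore include free RNA.

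The DNA just upstream of the start is shown for 6 members that the comparisons turn on: Egln3, Pfkfb4, Slc16a3 and Ankrd37, which were higher in neutrophil-like cells, and Slc16a3, Hk2 and Bnip3, which were higher in lining fibroblast-like cells. Each sequence is the 250 bases before the annotated start, from RefSeq on build GRCm38.p6, written 5′ to 3′ on the strand of the gene. Capitals mark the 5-base HIF core, ACGTG or GCGTG on either strand. The letters CACGTG, a general E-box, hold the core on both strands.
Egln3 (chr12:54203875-54204124, minus strand): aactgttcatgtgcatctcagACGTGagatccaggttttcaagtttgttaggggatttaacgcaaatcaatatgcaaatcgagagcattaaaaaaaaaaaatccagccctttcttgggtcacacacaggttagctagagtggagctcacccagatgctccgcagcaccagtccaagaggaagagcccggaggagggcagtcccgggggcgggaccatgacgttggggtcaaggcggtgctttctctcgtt
Pfkfb4 (chr9:108991652-108991901, plus strand): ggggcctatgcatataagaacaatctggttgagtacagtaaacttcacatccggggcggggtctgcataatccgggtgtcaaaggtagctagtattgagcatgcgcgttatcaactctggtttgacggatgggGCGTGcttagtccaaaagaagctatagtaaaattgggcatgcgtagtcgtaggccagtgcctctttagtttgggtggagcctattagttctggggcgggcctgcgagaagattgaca
Slc16a3 (chr11:120948817-120949066, plus strand): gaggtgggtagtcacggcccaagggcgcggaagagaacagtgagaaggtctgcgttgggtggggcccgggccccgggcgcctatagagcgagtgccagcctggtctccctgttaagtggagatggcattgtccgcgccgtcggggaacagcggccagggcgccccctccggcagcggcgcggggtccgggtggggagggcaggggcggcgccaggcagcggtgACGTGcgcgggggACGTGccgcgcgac
Ankrd37 (chr8:45999851-46000100, minus strand): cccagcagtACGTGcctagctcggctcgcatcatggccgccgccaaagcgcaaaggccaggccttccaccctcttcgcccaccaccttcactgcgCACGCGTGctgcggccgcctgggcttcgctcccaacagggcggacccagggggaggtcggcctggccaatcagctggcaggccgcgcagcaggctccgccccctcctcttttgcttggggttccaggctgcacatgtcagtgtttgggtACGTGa
Hk2 (chr6:82774455-82774704, minus strand): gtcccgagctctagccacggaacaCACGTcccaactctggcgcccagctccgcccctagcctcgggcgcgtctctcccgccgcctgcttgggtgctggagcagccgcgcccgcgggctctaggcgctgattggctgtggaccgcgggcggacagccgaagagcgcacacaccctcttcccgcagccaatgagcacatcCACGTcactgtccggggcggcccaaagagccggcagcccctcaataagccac
Bnip3 (chr7:138909507-138909756, minus strand): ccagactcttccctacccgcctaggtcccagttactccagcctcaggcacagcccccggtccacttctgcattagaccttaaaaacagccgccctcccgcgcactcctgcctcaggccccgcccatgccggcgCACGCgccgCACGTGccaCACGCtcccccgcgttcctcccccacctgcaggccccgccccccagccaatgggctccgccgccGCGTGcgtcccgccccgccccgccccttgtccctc
Bnip3 held 5 cores, Ankrd37 held 4, Slc16a3 and Hk2 held 2 each, and Egln3 and Pfkfb4 held 1 each. Of the 34 members 32 had an entry in the RefSeq promoter table, all but Slc2a3 and Ndrg1. The core was present upstream of 29 of these 32 (90.6%), against 41.5% of 27025 genes in the same window. Known HIF targets are among the members by choice, so this excess is no test of the list. A gene counted when any of its windows held the core, and there were 45 windows for the 32 members and 32851 for the 27025 genes. The members' promoters were richer in G and C, with a median of 61.3% against 52.4% over all genes, and the core was present in 59.0% of the 7200 genes with a GC content of 55.5% to 66.4%, the middle range of the members. A match describes the letters in this window and says nothing of binding.

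The members did not share 1 pattern of expression, as the heat map of levels by class shows. Neutrophil-like cells had the highest mean level for 6 members and monocyte/macrophage-like cells for another 6. For 5 of the 6 in neutrophil-like cells, and 1 of the 6 in monocyte/macrophage-like cells, the 3 libraries lay above all 3 libraries of the next class. The 5 were transporters, a regulator and hypoxia targets (Slc2a1, Pfkfb4, Slc16a3, Egln3, Ankrd37), and the 1 was Hk2. For Hk2 the next class was neutrophil-like cells, at 96.5 CPM against 105.8 CPM. That order holds for CPM only. In the edgeR test of these classes below, which scales them otherwise, Hk2 was not called and lay slightly to the neutrophil-like side. Tpi1, Gapdh, Pgk1, Pgam1 and Pdk1 were also highest in monocyte/macrophage-like cells, with libraries that overlapped those of the next class. Within libraries, Tpi1 and Gapdh were above the next class, osteoclast-like cells, in 3 of 3, and Pgk1, Pgam1 and Pdk1 above theirs in 2 of 3. Such counts of highest classes were not made over all genes, so they are not read as a trait of the members. Classes taken from clusters gave the same highest class for 30 of the 34 members. The ranks of dendritic cell-like, natural killer cell-like, erythroid-like and adipocyte-like cells rest on few cells (21 to 89 per library), and Car9 was highest in dendritic cell-like cells from 2 UMIs in all.

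**Figure D1:**
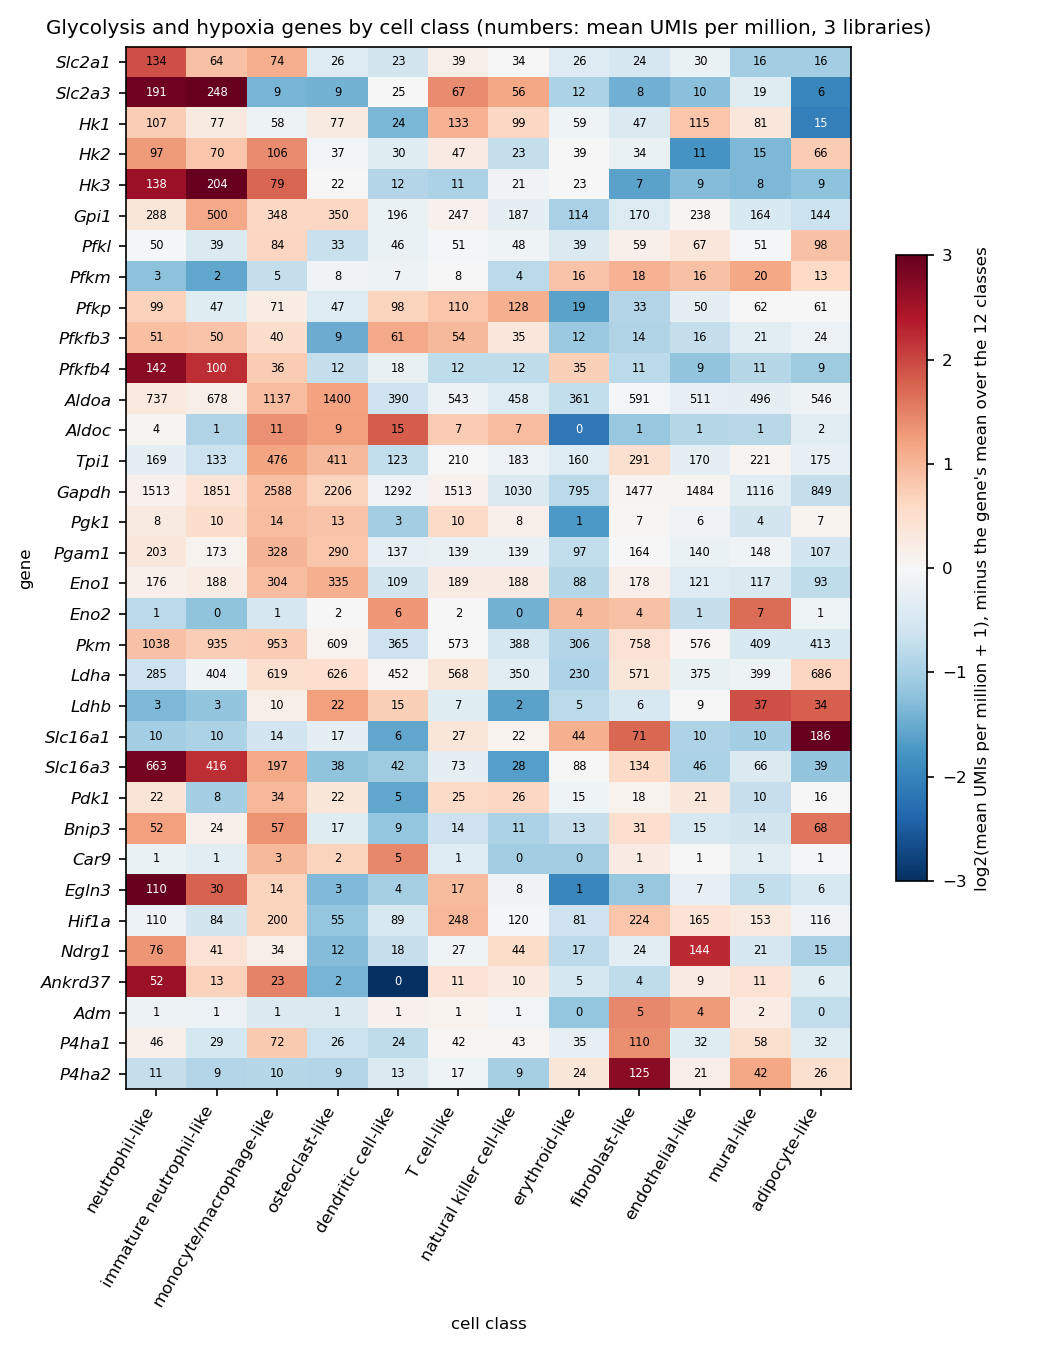
Mean level of each of the 34 genes (rows) in the 12 broad classes (columns), with the number in each cell giving the mean CPM of 3 libraries and the colour giving log2(CPM + 1) relative to the gene's own mean over the classes. Slc2a3, Hk3, Pfkfb4, Slc16a3 and Egln3 are highest in a neutrophil-like column, P4ha2 in fibroblast-like, Ndrg1 in endothelial-like and Slc16a1 in adipocyte-like cells.

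Glucose entry was divided between 2 transporters. Slc2a3 encodes GLUT3, a high-affinity transporter, and its level was 273, 208 and 262 CPM in immature neutrophil-like cells and 201, 213 and 160.3 CPM in neutrophil-like cells of replicates 1, 2 and 3. T cell-like cells held 50.2, 68.8 and 82.0 CPM and monocyte/macrophage-like cells 8.47, 11.1 and 6.71 CPM. Both neutrophil-like classes overlapped each other and lay above these other 2 classes in every library. Slc2a1 encodes GLUT1, the widely used basal transporter and a HIF target, and reached 134 ± 22.8 CPM in neutrophil-like and 74.4 ± 17.5 CPM in monocyte/macrophage-like cells. Of the UMIs of both transporters, Slc2a3 took 79.8% ± 3.25 in immature neutrophil-like, 58.7% ± 7.63 in neutrophil-like and 62.6% ± 4.27 in T cell-like cells, but 11.04% ± 4.47 in monocyte/macrophage-like cells. UMIs were not scaled by transcript length, so such shares are read between classes and not as enzyme amounts.

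Hexokinases trap glucose as glucose-6-phosphate, and the classes used the 3 forms in different mixes. Hk3, the form of myeloid cells, took 58.5, 57.7 and 58.1% of hexokinase UMIs in immature neutrophil-like cells of replicates 1, 2 and 3, and 39.4, 44.3 and 37.8% in neutrophil-like cells. In fibroblast-like cells its share was 7.78% ± 0.430, and its level there, 6.80 CPM, lay under the free RNA limit of 8.42 CPM. Hk2, the inducible form and a HIF target, made up 44.2% ± 5.23 in monocyte/macrophage-like and 72.9% ± 6.99 in adipocyte-like cells, the latter from 46 to 102 UMIs per library. Hk1, the housekeeping form, made up 84.5, 85.6 and 86.6% in endothelial-like cells, 77.8% ± 0.863 in mural-like and 70.0% ± 9.64 in T cell-like cells, against 23.8% ± 0.870 in monocyte/macrophage-like cells.

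Phosphofructokinase commits the sugar to glycolysis, and the PFKFB enzymes make fructose-2,6-bisphosphate, its activator. The platelet-type subunit Pfkp made up 65.2% ± 1.94 of phosphofructokinase UMIs in neutrophil-like and 64.8% ± 3.22 in T cell-like cells, against 30.1% ± 0.563 in fibroblast-like cells. There the liver-type subunit Pfkl took 53.5% ± 0.412 and the muscle-type Pfkm 16.4% ± 0.544, while Pfkm was 1.92% ± 0.0824 in neutrophil-like cells. Between the activating enzymes, Pfkfb4 held 74.9, 72.9 and 72.3% of the pair in neutrophil-like cells of replicates 1, 2 and 3. In T cell-like cells it held 18.2, 23.2 and 13.4%, and Pfkfb3, the form with high kinase activity, took the rest. Monocyte/macrophage-like cells lay between these classes, at 46.7, 48.9 and 47.2% Pfkfb4, without overlap with either.

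**Figure D2:**
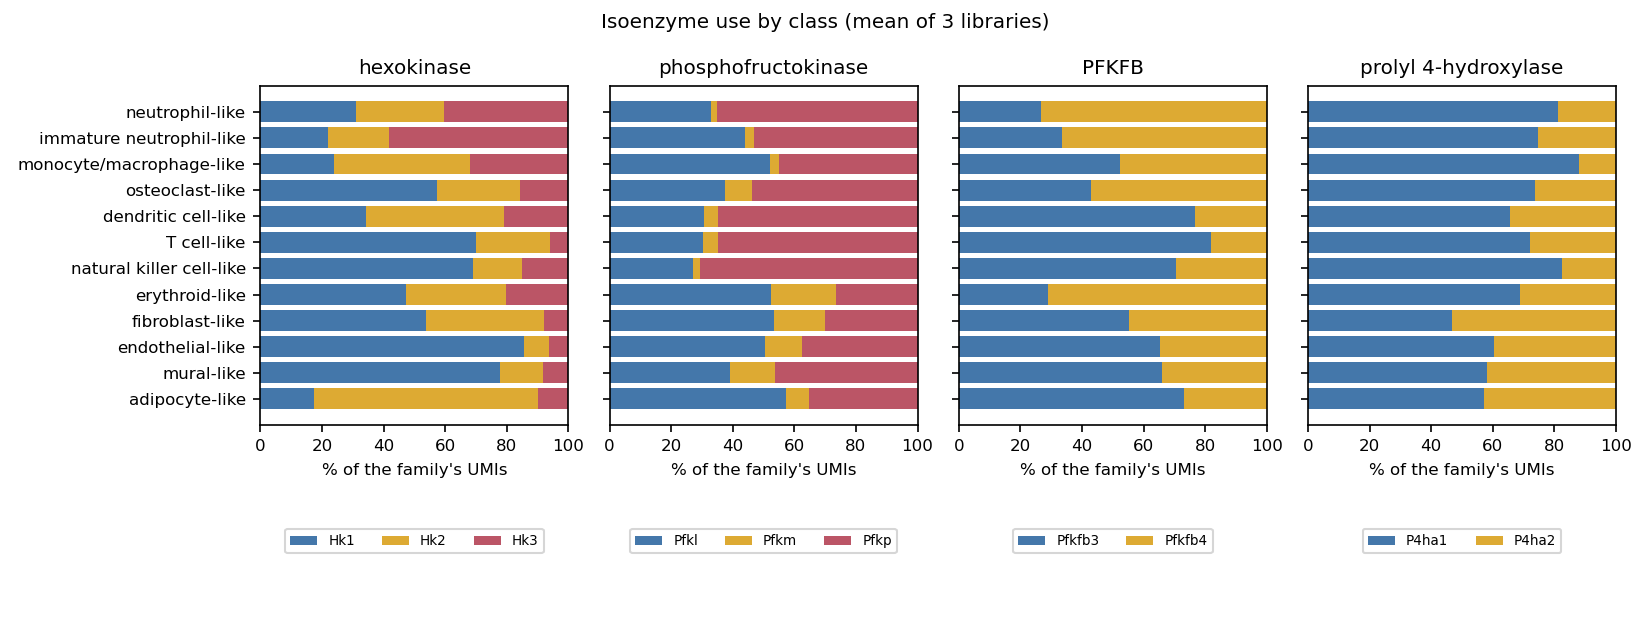
Share of each isoenzyme in the UMIs of its family (percent, mean of 3 libraries) for 12 classes in 4 families. Pfkfb4 takes 73.4% in neutrophil-like and 18.3% in T cell-like cells, Hk1 takes 85.6% in endothelial-like cells, and P4ha2 takes 53.1% in fibroblast-like cells.

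The enzymes of the later steps were found in every broad class, except that Aldoc had 0 UMIs in erythroid-like cells (up to 4.29 CPM allowed) and Eno2 0 in natural killer cell-like cells (up to 4.37 CPM). Gapdh, which oxidises the triose, ranged from 795 ± 79.4 CPM in erythroid-like to 2588 ± 482 CPM in monocyte/macrophage-like cells, and Aldoa, the common aldolase, from 361 ± 69.6 CPM in erythroid-like to 1399.7 ± 147 CPM in osteoclast-like cells. Pkm, pyruvate kinase, was highest in neutrophil-like cells at 986, 970.0 and 1157 CPM, with 928, 801 and 1131 CPM in monocyte/macrophage-like cells, which overlapped between libraries while neutrophil-like cells were higher in 3 of 3 libraries. Pgk1 was listed at only 13.7 ± 0.410 CPM in monocyte/macrophage-like cells, and a near-identical copy of Eno1, listed as Eno1b, held 115 CPM there over all libraries beside a mean of 304 CPM for Eno1. Pgk1 and Eno1 have near-identical copies in the genome among which reads can be split, so their levels are uncertain.

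The summed share of 18 glycolytic enzyme genes among all UMIs was highest, of the 12 broad classes, in monocyte/macrophage-like cells (0.703, 0.596 and 0.858% in replicates 1, 2 and 3) and osteoclast-like cells (0.609, 0.629 and 0.711%), and lowest in erythroid-like cells (0.236% ± 0.00861). Neutrophil-like cells held 0.454, 0.446 and 0.575% and fibroblast-like cells 0.442, 0.402 and 0.481%, which overlapped between libraries, with neutrophil-like cells higher within each of the 3. Among the macrophage states Spp1/Arg1 macrophage-like cells held 0.889, 0.805 and 0.999%, above monocyte/macrophage-like cells as a whole, the class that contains them, in each library. Replicate 3 had the highest share in 11 of the 12 broad classes and replicate 2 the lowest in 10, so the libraries differed in the same order in most classes. Comparisons between classes were made within libraries. The largest parts of the summed share in monocyte/macrophage-like cells were Gapdh (2588 CPM), Aldoa (1137 CPM) and Pkm (953 CPM). The sum is therefore weighted to abundant genes, and it includes Pgk1 and Eno1, whose levels are uncertain.

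Lactate leaves cells through MCT4 (Slc16a3), a HIF target suited to export, and passes in both directions through MCT1 (Slc16a1). Slc16a3 was at 617, 665 and 705 CPM in neutrophil-like, 189.9, 152 and 248 CPM in monocyte/macrophage-like and 138, 119.7 and 144 CPM in fibroblast-like cells. All 3 neutrophil-like libraries lay above those of the other 2 classes. Slc16a1 showed another order, with 199.99, 194 and 163 CPM in adipocyte-like, 76.4, 72.8 and 62.5 CPM in fibroblast-like and 9.48, 8.86 and 10.7 CPM in neutrophil-like cells, again without overlap. It took 82.7% ± 9.59 of the UMIs of both carriers in adipocyte-like, 34.6% ± 3.89 in fibroblast-like and 1.44% ± 0.111 in neutrophil-like cells. Ldhb, the heart-type subunit of lactate dehydrogenase, had its highest mean in mural-like cells, at 34.1, 42.3 and 33.3 CPM, with adipocyte-like cells at 40.0, 35.03 and 25.8 CPM. Mural-like cells were higher in 2 of 3 libraries and the classes overlapped. In mural-like cells it took 8.55% ± 2.14 of the UMIs of Ldha and Ldhb.

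**Figure D3:**
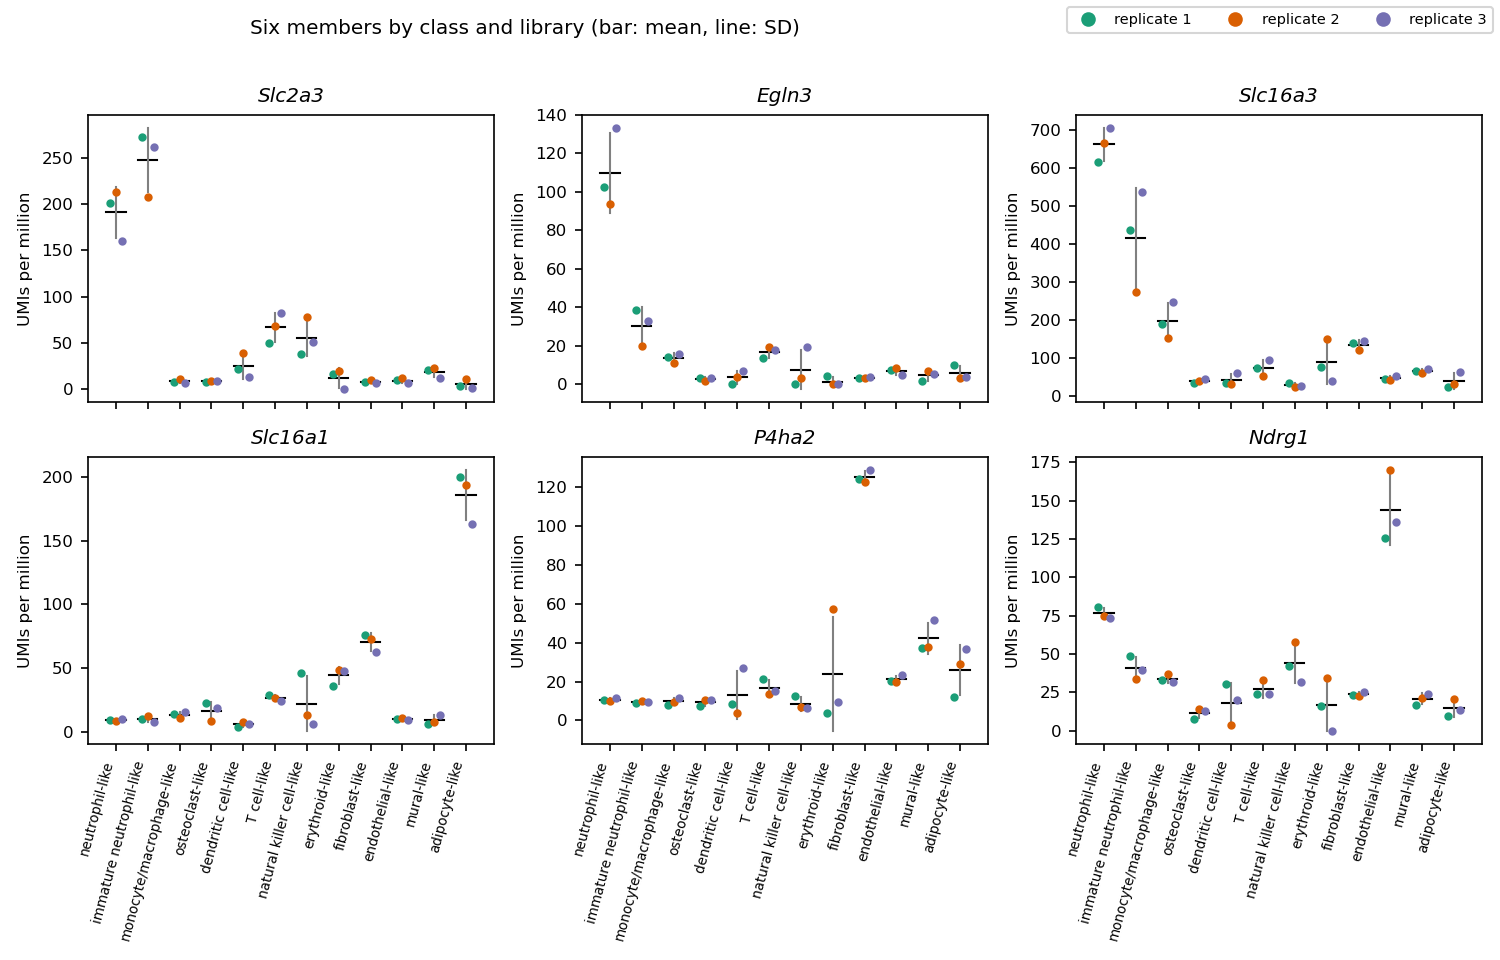
Level in CPM (vertical axis) of 6 genes in 12 classes, with 1 point per library, a bar at the mean and a line for the SD. The neutrophil-like points of Egln3 and Slc16a3, the fibroblast-like points of P4ha2, the endothelial-like points of Ndrg1 and the adipocyte-like points of Slc16a1 lie above those of the class with the next highest mean.

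Among the oxygen-sensing genes and HIF targets, different classes held different targets at their highest level. Egln3 encodes the inducible prolyl hydroxylase PHD3, itself a HIF target, and lay at 102, 93.5 and 133 CPM in neutrophil-like, 38.7, 19.98 and 32.6 CPM in immature neutrophil-like and 14.1, 10.8 and 15.7 CPM in monocyte/macrophage-like cells. These 3 classes did not overlap. Ankrd37, an ankyrin-repeat gene known as a HIF target, reached 45.0, 42.6 and 68.9 CPM in neutrophil-like cells. Ndrg1, a stress-response gene induced by hypoxia, was highest in endothelial-like cells at 126, 170.0 and 136 CPM, above the 80.9, 74.8 and 73.8 CPM of neutrophil-like cells. P4ha2 encodes a catalytic subunit of the collagen prolyl 4-hydroxylase, which stabilises the collagen helix, and made up 53.1% ± 1.61 of the UMIs of both catalytic subunits in fibroblast-like cells. The share was 12.0% ± 1.45 in monocyte/macrophage-like cells, where the P4ha2 level of 9.75 CPM lay under the free RNA limit of 11.4 CPM. Bnip3, a mitophagy receptor, was at 68.0 ± 18.1 CPM in adipocyte-like cells. Hif1a itself was highest in T cell-like (248 ± 16.9 CPM) and lowest in osteoclast-like cells (54.9 ± 3.86 CPM). Car9, a pH-regulating carbonic anhydrase, and Adm, a vasodilator peptide, were scarce, at most 4.53 and 5.04 CPM in any broad class. Ankrd37 had no UMI among the 632836 of dendritic cell-like cells, which allows up to 4.74 CPM for counting error.

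In all, 8 comparisons between classes were tested with edgeR on the UMI sums, and a gene was called when its adjusted p was under 0.05 and its change at least 2-fold. Neutrophil-like cells, the granulocytes of acute inflammation, were first set against monocyte/macrophage-like cells, the other large myeloid class. Of 34 members 9 were called higher and 4 lower, while over all genes 22.2% were called higher and 22.2% lower, and the median log2 change was -0.12 for the members and -0.01 for all genes tested. The members called higher were transporters (Slc2a3, Slc2a1, Slc16a3), early steps (Hk1, Hk3, Pfkfb4) and HIF targets (Egln3, Ndrg1, Ankrd37). Those called lower were Tpi1, Aldoc, Ldhb and Car9.

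Slc2a3 showed the largest difference, a log2 fold change of 4.73 ± 0.11 (SE, adjusted p = 2.53e-19), followed by Egln3 at 3.27 ± 0.10 (adjusted p = 2.62e-17). Pfkfb4 was at 144, 152 and 128 CPM against 33.4, 40.6 and 34.8 CPM, a log2 fold change of 2.22 ± 0.10 (adjusted p = 6.58e-15), and Slc16a3 differed by 2.03 ± 0.13 (adjusted p = 3.77e-12). In these 4 genes all neutrophil-like libraries lay above all monocyte/macrophage-like ones. Slc2a1 was 1.11 ± 0.10 higher (adjusted p = 1.31e-09). It missed the fold threshold at 0.86 when class totals alone set the scale, and at 0.98 without replicate 2. Tpi1, triose phosphate isomerase, was lower with 161, 144 and 202 CPM against 475, 421 and 532 CPM (log2 fold change -1.25 ± 0.10, adjusted p = 1.07e-10). Aldoc (-1.25 ± 0.17, adjusted p = 1.1e-06) and Ldhb (-1.61 ± 0.18, adjusted p = 4.36e-08) were also called lower. Bnip3 (0.15 ± 0.10, adjusted p = 0.165) and Hk2 (0.12 ± 0.10, adjusted p = 0.239) were not called, and both turned to the other side of 0 with class totals alone. Pfkfb3 (0.62 ± 0.09), Hif1a (-0.60 ± 0.09) and Ldha (-0.87 ± 0.10) differed by less than 2-fold, and Ldha reached -1.13 with class totals alone.

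Of 23 genes tested of pyruvate entry and the TCA cycle, 11 were called lower and 0 higher by edgeR in the same cells, with 0 raised at an unadjusted p under 0.05 and 0 called higher by DESeq2. Fumarate hydratase (Fh1) showed the largest difference (-2.30 ± 0.16, adjusted p = 1.21e-11). In glycogen metabolism 3 of 7 genes were called higher and 1 lower, led by glycogen phosphorylase Pygl with 335, 341 and 327 CPM against 71.8, 63.9 and 76.1 CPM (2.50 ± 0.11, adjusted p = 7.44e-15). Among further HIF machinery and targets 2 of 25 were called higher and 6 lower. Of the dissociation-response genes, which tissue digestion can induce, 13 of 17 were called higher and 2 lower, led by Btg2 (3.46 ± 0.11, adjusted p = 3.47e-17). Their part in the members' differences was not tested. Neutrophil-like cells were shallower, with median UMI counts of 1552 to 1966 against 5804 to 7550, and with every cell thinned to 1000 UMIs and the classes equal in cells 9 members were called higher and 2 lower. Class totals alone lowered all log2 changes by 0.26 at the median, gave 6 members higher and 5 lower, and moved the share of higher calls among all calls from 49.9% to 37.1%.

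Fibroblast-like cells, which build the synovial matrix, were next set against monocyte/macrophage-like cells. Of 34 members 5 were called higher and 9 lower, against 23.8% higher and 19.5% lower over all genes. The median log2 change was -0.69 for the members and 0.02 for all genes, and 26 of 34 members lay below 0. P4ha2 was at 124, 122 and 129 CPM against 8.10, 9.60 and 11.6 CPM (log2 fold change 3.78 ± 0.09, adjusted p = 3.63e-11). The monocyte/macrophage-like mean of 9.75 CPM lay under the free RNA limit of 11.4 CPM, so expression of P4ha2 by these cells was not detectable above it. Slc16a1 was higher by 2.46 ± 0.12 (adjusted p = 6.56e-09) and Pfkm, at 17.8, 16.7 and 19.3 CPM against 4.40, 4.30 and 5.21 CPM, by 2.05 ± 0.09 (adjusted p = 2.89e-09). Eno2 and Adm completed the 5 at levels under 10 CPM.

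The lower members were several early steps and HIF targets. Hk3 fell by 3.41 ± 0.14 on the log2 scale (adjusted p = 2.14e-09) and Aldoc by 3.27 ± 0.14 (adjusted p = 3.94e-09). Ankrd37 held 3.94, 2.78 and 5.69 CPM against 20.9, 17.6 and 31.8 CPM (-2.41 ± 0.09, adjusted p = 8.94e-10), and Egln3 differed by -1.98 ± 0.11 (adjusted p = 3.69e-08). Hk2 was at 36.4, 36.1 and 28.6 CPM against 104, 103 and 110.0 CPM (-1.56 ± 0.08, adjusted p = 2.17e-08). Slc2a1 (-1.51 ± 0.09) and Pfkfb3 (-1.41 ± 0.07) were also called lower, and the classes did not overlap in Ankrd37, Hk2, Slc2a1 or Pfkfb3. Pfkfb4 and Pfkp completed the 9. Ldha (-0.01 ± 0.07, adjusted p = 0.948), Hif1a (0.26 ± 0.07), Slc16a3 (-0.43 ± 0.08) and Bnip3 (-0.74 ± 0.09) were not called. Among further HIF machinery and targets 9 of 25 were called higher and 3 lower, led by the collagen lysyl hydroxylase Plod2 (4.48 ± 0.09, adjusted p = 3.18e-11) and the heme oxygenase Hmox1 (-2.74 ± 0.07, adjusted p = 4.75e-11). Of the pentose phosphate genes 3 of 8 were called lower and 0 higher by edgeR, with 1 raised at an unadjusted p under 0.05 and 0 called higher by DESeq2. Of the dissociation-response genes 10 of 17 were called lower and 0 higher by edgeR, with 2 raised at an unadjusted p under 0.05 and 0 called higher by DESeq2, and their part in the members' differences was not tested.

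**Figure D4:**
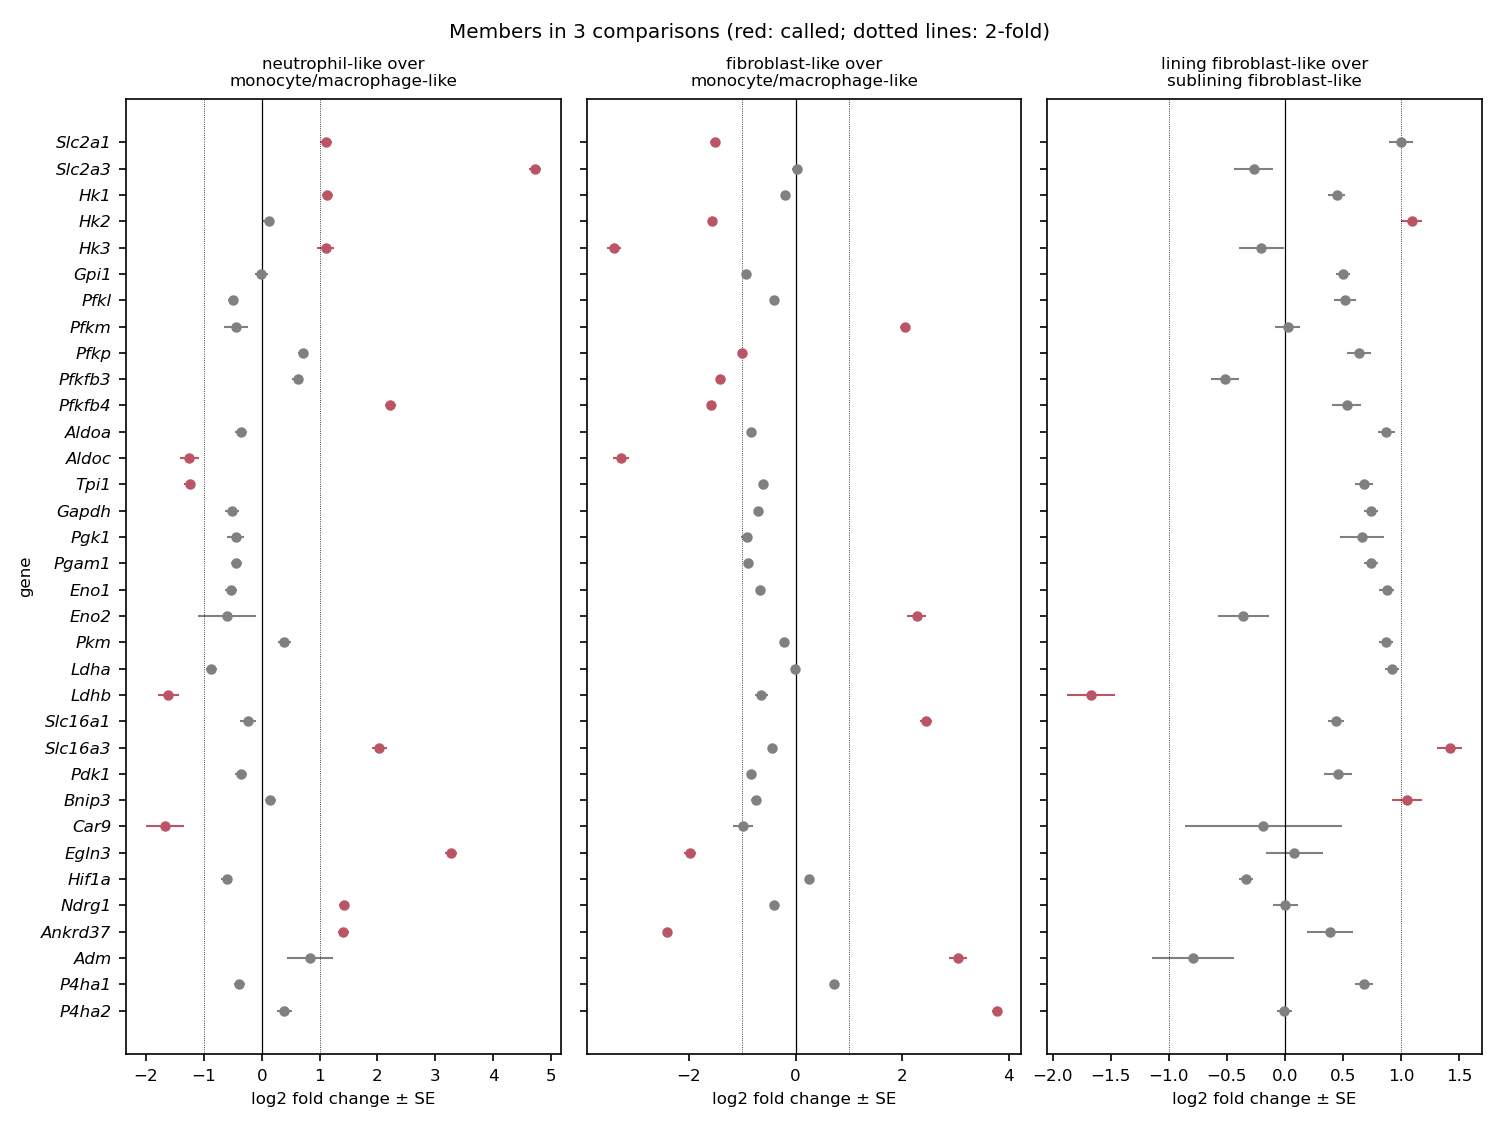
Log2 fold change with its SE (horizontal axes) of the 34 genes in 3 comparisons, with called genes in red and dotted lines at 2-fold. Slc2a3 at 4.73 ± 0.11 lies farthest right for neutrophil-like over monocyte/macrophage-like cells, and P4ha2 at 3.78 ± 0.09 for fibroblast-like over monocyte/macrophage-like cells.

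Endothelial-like cells, which line the vessels, were compared with fibroblast-like cells. Of 34 members 2 were called higher and 8 lower, against 12.2% and 16.8% over all genes. Ndrg1 was higher, at 126, 170.0 and 136 CPM against 23.5, 23.0 and 25.6 CPM (log2 fold change 2.32 ± 0.10, adjusted p = 1.7e-10). Hk1 was higher by 1.04 ± 0.07 (adjusted p = 1.35e-08), close to the fold threshold, and with cycling cells left out it was 0.95 and not called. Slc16a1 (-3.02 ± 0.09, adjusted p = 3.91e-12), P4ha2 (-2.82 ± 0.07, adjusted p = 1.83e-12), P4ha1 (-2.04 ± 0.07, adjusted p = 2.63e-11) and Hk2 (-1.91 ± 0.09, adjusted p = 5.37e-10) were called lower. The endothelial-like mean of Hk2, 10.7 CPM, was under the free RNA limit of 10.8 CPM. Slc16a3 (-1.80 ± 0.07) and Bnip3 (-1.32 ± 0.10) were also called lower, as were Eno2 and Tpi1. Hif1a (-0.70 ± 0.06), Ldha (-0.86 ± 0.06), Slc2a1 (0.04 ± 0.08) and Pfkfb3 (-0.04 ± 0.09) were not called. Egln3 (0.83 ± 0.20) was not called either and reached 1.12 without replicate 3, where 4 members were called higher.

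In the HIF list 2 of 25 genes were called higher and 9 lower. Epas1, which encodes HIF-2α, was higher with 431, 417 and 469.8 CPM against 57.2, 61.3 and 50.2 CPM (2.71 ± 0.08, adjusted p = 4.81e-12), and the collagen cross-linking enzyme Loxl2 lower (-4.09 ± 0.10, adjusted p = 1.1e-12). Class totals alone raised all changes by 0.26 at the median, gave 4 members higher and 7 lower, and moved the share of higher calls from 42.1% to 53.2%.

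Mural-like cells, the pericytes and smooth muscle of the vessel wall, were compared with endothelial-like cells. Of 32 members tested 2 were called higher and 4 lower, against 13.6% and 10.1% over all genes. Ldhb was higher, with 34.1, 42.3 and 33.3 CPM against 9.36, 9.80 and 7.34 CPM (log2 fold change 1.88 ± 0.16, adjusted p = 1.06e-07), and Eno2 was called higher at levels under 10 CPM. Ndrg1 was lower at 17.1, 21.6 and 24.2 CPM (-2.95 ± 0.13, adjusted p = 6.37e-11). Pdk1, a kinase that shuts off pyruvate dehydrogenase, was called lower (-1.28 ± 0.21, adjusted p = 0.000108) and missed the fold threshold without replicate 2 (-0.99). Slc2a1 was called lower (-1.03 ± 0.18, adjusted p = 0.000188) but was -0.78 without replicate 1, and Adm was lower at levels under 10 CPM. Hk2 (0.29 ± 0.19), Pfkfb3 (0.21 ± 0.16), Hif1a (-0.27 ± 0.09), Ldha (-0.08 ± 0.08), Slc16a3 (0.35 ± 0.10), Bnip3 (-0.20 ± 0.20) and Egln3 (-0.77 ± 0.36) were not called.

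Outside the members, 3 of 13 other glycolysis genes were called higher and 2 lower in mural-like cells. Among these, the insulin-responsive glucose transporter Slc2a4 held 21.0, 26.9 and 15.7 CPM against 0.117, 0.215 and 0.150 CPM (6.69 ± 0.37, adjusted p = 7.31e-10). Of 7 glycogen genes 1 was called higher and 0 lower by edgeR, with 0 lowered at an unadjusted p under 0.05 and 0 called lower by DESeq2. It was muscle glycogen phosphorylase Pygm, at 21.4, 27.4 and 28.4 CPM against 0.468, 1.08 and 1.498 CPM (4.52 ± 0.27, adjusted p = 1.9e-09). The summed skeletal muscle markers were at 4.39 to 6.65 CPM in mural-like and 2.70 to 5.03 CPM in endothelial-like cells, with 3 of 8 and 2 of 8 markers at 0. Class totals alone raised all changes by 0.16 at the median.

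Osteoclast-like cells, which resorb bone and arise from the monocyte lineage, were set against monocyte/macrophage-like cells. Of 33 members tested 13 were called lower and 1 higher, against 18.1% lower and 11.6% higher over all genes. The median log2 change was -0.36 for the members and -0.07 for all genes. The 13 were Ankrd37, Egln3, Slc16a3, Pfkfb3, Hk3, Hif1a, Bnip3, Ndrg1, Hk2, Pfkfb4, Slc2a1, P4ha1 and Pfkl. Hif1a was at 56.4, 50.5 and 57.8 CPM against 201, 193 and 205 CPM (log2 fold change -1.87 ± 0.11, adjusted p = 6.19e-68). Slc16a3 was at 32.6, 39.8 and 43.1 CPM against 189.9, 152 and 248 CPM (-2.33 ± 0.11, adjusted p = 6.46e-91), and Pfkfb3 at 8.68, 8.26 and 10.3 CPM against 38.1, 42.5 and 38.9 CPM (-2.17 ± 0.19, adjusted p = 1.26e-29). The classes did not overlap in these 3 genes. Ankrd37 (-3.34 ± 0.30, adjusted p = 5.18e-28) and Egln3 (-2.38 ± 0.32, adjusted p = 1.18e-12) had levels in osteoclast-like cells, 2.36 and 2.65 CPM, under the free RNA limits of 2.91 and 3.12 CPM. Hk2 (-1.56 ± 0.12), Bnip3 (-1.68 ± 0.15) and Slc2a1 (-1.48 ± 0.13) were called lower, and Ldha (0.03 ± 0.08, adjusted p = 0.812) was not called. Ldhb was the 1 member called higher, at 29.1, 16.0 and 21.6 CPM against 9.76, 7.49 and 13.3 CPM (1.18 ± 0.19, adjusted p = 2.25e-09), and at 0.90 without replicate 1 it missed the fold threshold. In this comparison edgeR used 1 spread trend for all genes, which makes the p-values small, and DESeq2 also called 13 members lower and 1 higher.

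Of 23 genes of pyruvate entry and the TCA cycle 19 were called higher in osteoclast-like cells and 0 lower by edgeR, with 1 lowered at an unadjusted p under 0.05 and 0 called lower by DESeq2. Isocitrate dehydrogenase subunit Idh3a led, at 112, 113 and 97.4 CPM against 18.7, 16.7 and 16.9 CPM (2.62 ± 0.11, adjusted p = 7.28e-117). The D-lactate dehydrogenase gene Ldhd, outside the members, was at 19.1, 20.9 and 20.7 CPM against 0.860, 0.868 and 0.674 CPM (4.63 ± 0.32, adjusted p = 3.19e-46). Of the dissociation-response genes 13 of 17 were called lower and 1 higher, and their part in the members' differences was not tested. More osteoclast-like cells were cycling, 25.3% to 32.6% per library against 1.84% to 3.35%, and without cycling cells 13 members were called lower and 1 higher. With cells thinned to 1000 UMIs and the classes equal in cells (86 to 113 per library), 3 members were called lower and 0 higher by edgeR. Of the 14 called members 11 then had too few counts to be tested, and the 3 tested were called again.

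**Figure D5:**
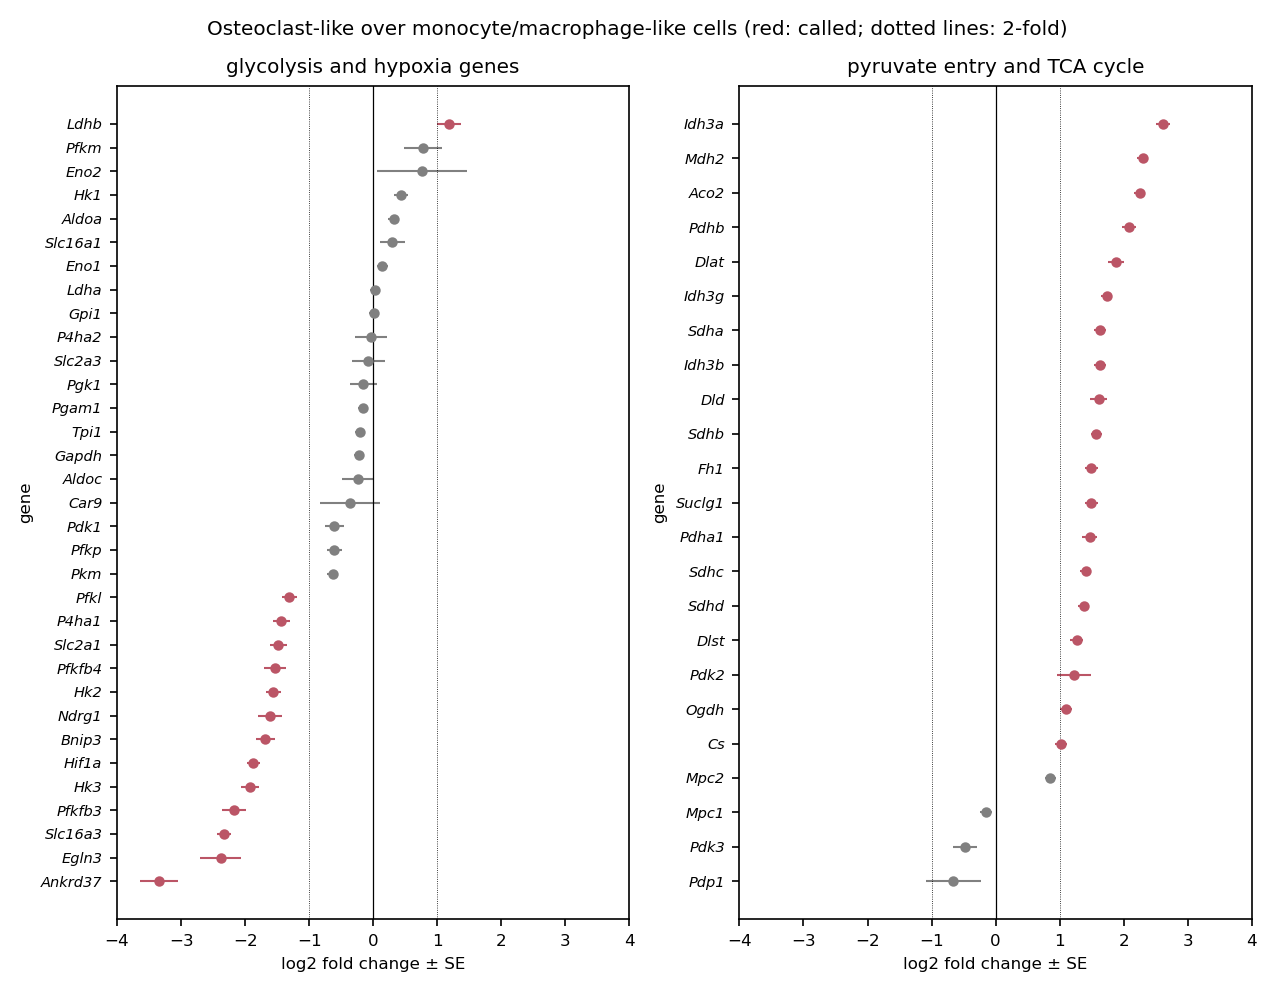
Log2 fold change with its SE of the glycolysis and hypoxia genes (left) and of the genes of pyruvate entry and the TCA cycle (right) in osteoclast-like over monocyte/macrophage-like cells, with called genes in red. The called genes at left lie below 0 except Ldhb, and the 19 at right lie above 0.

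Within the fibroblasts, lining fibroblast-like cells, which face the joint cavity, were compared with sublining fibroblast-like cells of the deeper tissue. Another 4450 fibroblast-like cells received neither state and did not enter. Of 33 members tested 3 were called higher and 1 lower, against 4.89% and 8.12% over all genes. The median log2 change was 0.50 for the members and -0.02 for all genes, and 24 of the 33 lay above 0. Slc16a3 was at 207, 239.5 and 256 CPM against 93.6, 70.7 and 82.6 CPM (log2 fold change 1.42 ± 0.11, adjusted p = 2.63e-06) and Hk2 at 53.9, 60.2 and 46.2 CPM against 26.0, 25.6 and 19.2 CPM (1.09 ± 0.09, adjusted p = 4.29e-06). Bnip3 was at 41.2, 43.5 and 60.6 CPM against 24.8, 19.6 and 21.3 CPM (1.05 ± 0.13, adjusted p = 9.2e-05), and reached 0.86 without replicate 3. In each of these 3 genes all lining libraries lay above all sublining ones. Ldhb was the 1 called lower, at 2.24, 2.56 and 2.86 CPM against 8.75, 6.23 and 8.13 CPM (-1.67 ± 0.21, adjusted p = 0.000102). Slc2a1, at 33.2, 41.5 and 38.1 CPM against 17.3, 17.2 and 18.5 CPM, lay at the threshold without passing it (1.00 ± 0.10, adjusted p = 2.86e-05), and Ldha, at 835, 770.1 and 1015 CPM against 437, 392 and 459 CPM, just under it (0.93 ± 0.06, adjusted p = 9.46e-07). Hif1a (-0.33 ± 0.06), Pfkfb3 (-0.52 ± 0.12) and Egln3 (0.08 ± 0.25) were not called.

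Of the further HIF machinery and targets 5 of 25 were called higher and 0 lower by edgeR, with 5 lowered at an unadjusted p under 0.05 and 0 called lower by DESeq2. Higd1a, a mitochondrial protein of hypoxia tolerance, was at 550.2, 539 and 571 CPM against 133, 124 and 149 CPM (1.94 ± 0.07, adjusted p = 9.3e-09). Vegfa, Fam162a, Ak4 and Loxl2 were the others. The summed share of the 18 glycolytic enzyme genes was 0.590, 0.595 and 0.699% in lining and 0.347, 0.316 and 0.360% in sublining fibroblast-like cells of replicates 1, 2 and 3, without overlap. Lining fibroblast-like cells were deeper (median 15586 to 20999 UMIs against 9903 to 14275.5) and more often cycling (23.0% to 28.0% against 7.22% to 12.5%). Without cycling cells 4 members were called higher, Slc2a1 (1.13) included, and with cells thinned to 1000 UMIs 4 were higher. Over all genes 642 were called higher in the main fit and 182 after thinning. Classes from clusters gave 9 higher and 2 lower, while the counts over all genes in each direction stayed within 1.5 times those of the main fit.

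Among macrophages, Spp1/Arg1 macrophage-like cells, named for osteopontin and arginase, were compared with MHC class II macrophage-like cells, an antigen-presenting state. Of 33 members tested 1 was called higher and 0 lower by edgeR, against 2.11% and 2.91% over all genes, with 2 lowered at an unadjusted p under 0.05 and 0 called lower by DESeq2. The 1 called was Hk3, at 156, 85.5 and 157 CPM against 49.5, 45.0 and 77.2 CPM (log2 fold change 1.29 ± 0.09, adjusted p = 1.28e-11). All libraries of the first state lay above those of the second. The median log2 change was 0.40 for the members and 0.02 for all genes, and 25 of 33 lay above 0. Of the dissociation-response genes 16 of 17 lay below 0 with a median of -0.39, 16 of the 17 had an adjusted edgeR p under 0.05 and 0 were called at 2-fold by edgeR or DESeq2, with 15 lowered and 1 raised at an unadjusted edgeR p under 0.05, and their part in the members' shift was not tested. Bnip3 (0.80 ± 0.08, adjusted p = 3.77e-09), Slc16a3 (0.62 ± 0.07, adjusted p = 1.15e-07) and Ldha (0.53 ± 0.07, adjusted p = 1.5e-06) were higher by less than 2-fold. Egln3 (0.47 ± 0.13), Hk2 (0.21 ± 0.08), Slc2a1 (0.09 ± 0.08), Hif1a (-0.15 ± 0.07) and Pfkfb3 (-0.18 ± 0.10) were not called either. In the HIF list Hmox1 was called higher (2.02 ± 0.11, adjusted p = 4.56e-14) and the placental growth factor Pgf lower (-1.19 ± 0.27, adjusted p = 0.000853). Classes from clusters called 6 members higher, Slc16a3 (1.44), Bnip3 (1.39) and Egln3 (1.32) among them. The counts over all genes then stayed within 1.5 times those of the main fit. Without replicate 2, and also without replicate 3, 2 members were called higher. Class totals alone moved the share of higher calls among all genes from 42.0% to 31.7%.

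Within the neutrophils, Ccl3/Ccl4 neutrophil-like cells, a chemokine-producing state, were compared with Retnlg neutrophil-like cells, named for the resistin-like gene Retnlg. Of 28 members tested 0 were called higher by edgeR and 1 lower, against 1.44% and 1.61% over all genes, with 2 raised at an unadjusted p under 0.05 and 0 called higher by DESeq2. The 1 called lower was Slc2a3, at 125, 141 and 97.5 CPM against 251, 251 and 206 CPM (log2 fold change -1.20 ± 0.08, adjusted p = 7.06e-10), without overlap. It was -0.97 with class totals alone, under the fold threshold. Slc16a3 was at 465, 517 and 513 CPM against 702, 733 and 841 CPM (-0.83 ± 0.06, adjusted p = 1.44e-09), under 2-fold. Hif1a (-0.53 ± 0.11), Bnip3 (-0.44 ± 0.12), Pfkfb3 (-0.43 ± 0.13), Ldha (-0.37 ± 0.08), Slc2a1 (-0.32 ± 0.08), Hk2 (-0.02 ± 0.09) and Egln3 (-0.01 ± 0.09) were not called, and Hk2 and Egln3 lay above 0 with class totals alone. The pentose phosphate pathway, which supplies NADPH to the oxidative burst, had 2 of 8 genes called lower and 0 higher by edgeR, with 0 raised at an unadjusted p under 0.05 and 0 called higher by DESeq2. Transaldolase Taldo1 led with 535, 555 and 602 CPM against 1067, 1064 and 1075 CPM (-1.15 ± 0.06, adjusted p = 2.56e-11). Class totals alone raised all changes by 0.23 at the median and moved the share of higher calls among all genes from 47.3% to 81.3%.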

How the data were processed

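Droplet single-cell RNA sequencing (DNBelab C) was run on 3 libraries of 2 pooled mice each. The authors deposited gene by cell matrices of raw UMI counts, made with PISA 1.0 per the file headers, with Seurat 3.0.2, R 3.6 and build GRCm39 per the submitters' processing notes. No aligner or annotation is named in those sources. The matrices held 38804 barcodes, 11939, 11602 and 15263 per library, while the labels state 11111, 10668 and 14363 cells. Barcode names are serial, and 6784 names recur between libraries, so shared cells could not be counted.

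Barcodes with under 200 genes or over 20% mitochondrial UMIs were left out (82), and Scrublet doublets (1847, score above 0.2) removed. A marker counted in a cell when its share of the cell's UMIs was at least its share in the library. A cell took the group of related classes with the highest fraction of markers counted, with at least 3 markers and a lead of at least 0.1. In the neutrophil group, cells with at least 50% of the immature markers counted were immature neutrophil-like. T cell-like and natural killer cell-like cells were split by the higher fraction, without a lead. States within a class needed the same 3 markers and lead. No state was given to 4450 fibroblast-like, 1621 monocyte/macrophage-like and 2547 neutrophil-like cells, which were left out of the comparisons of states. UMIs were summed per library and class and tested with edgeR 4.0.16 in R 4.3.3 (quasi-likelihood test, filterByExpr, TMM, library as block, Benjamini-Hochberg adjustment over all genes tested). The fits were also run on simulated counts drawn without shared library deviations, so no conclusion on the present sums is drawn from them. Same-library sums deviated together, with correlations of 0.18 to 0.61, and the pairing comes from the shared pool of mice. Alternatives were DESeq2 1.42.0, class totals, no low-count filter, no block, each replicate left out, a stricter gate, Leiden clusters (scanpy 1.11.5), doublets kept, thinning to 1000 UMIs, free RNA subtracted and cycling cells left out. Intervals and floors cover counting error only.

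The members and lists were chosen with earlier results of these data known. Full statistics were given for at most 4 called members per direction with the largest change and a level of 10 CPM or more in 1 of the classes, for 8 members in every comparison (Hif1a, Slc2a1, Hk2, Pfkfb3, Ldha, Slc16a3, Bnip3, Egln3), and for the leading called gene of a further list. Other members named to complete a count, and Ldhb in lining cells, were chosen after their values were seen. Promoters came from a RefSeq table on GRCm38.p6, another build than that of the matrices, and were used for sequence alone.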

Additional observations from a re-analysis of the deposited data

How the results depend on the processing

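Of 1092 recomputed log2 fold changes of named members, 1015 kept their direction and their side of the threshold, 15 lost the call, 27 gained it and 35 changed sign. These totals leave out values that could not be computed. With cells thinned to 1000 UMIs 20 named log2 fold changes had too few counts to be tested, 10 of them called before, 7 in the osteoclast-like and 3 in the mural-like comparison. Over all members 19 of 63 calls could not be tested after thinning, and 41 of the 44 tested were made again. Of 204 recomputed counts of called members 175 stayed within 1.5 times the reported count, and of 238 recomputed levels 233 moved by less than 1 SD. Of 204 recomputed counts of called genes over all genes 187 stayed within 1.5 times. The other 17 are given below, so where no count over all genes is given it stayed within that range. The sign changes were all in genes that were not called, and their cause was not tested. Leaving out cycling cells was chosen after seeing the data. Classes from clusters were not run for Ccl3/Ccl4 over Retnlg neutrophil-like cells, and free RNA was not subtracted there.

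The same pools of mice gave both classes of each comparison, so the library was a block in every fit. Without the replicate block the same 63 calls of members were made over the 8 comparisons, for example 9 higher and 4 lower in neutrophil-like over monocyte/macrophage-like cells. Over all genes, other calls did change: 25709 were shared, of 27426 with the block and 25990 without it.

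With cells thinned to 1000 UMIs and the classes equal in cells, both depth and cell number fell. Called members were then 2 lower in neutrophil-like over monocyte/macrophage-like cells, 5 lower in endothelial-like over fibroblast-like cells, 0 higher and 3 lower in osteoclast-like over monocyte/macrophage-like cells, 0 lower in lining over sublining cells, and 1 higher and 1 lower in mural-like over endothelial-like cells. Over all genes 2399 were called higher in fibroblast-like over monocyte/macrophage-like cells, 978 higher and 921 lower in endothelial-like over fibroblast-like cells, and 315 higher and 468 lower in osteoclast-like over monocyte/macrophage-like cells. They were 182 higher and 326 lower in lining over sublining cells, 122 higher and 159 lower in Spp1/Arg1 over MHC class II cells, and 582 higher and 508 lower in mural-like over endothelial-like cells. Ldha changed sign in fibroblast-like over monocyte/macrophage-like cells (0.034), as did Hk2 (0.074) and Egln3 (0.065) in Ccl3/Ccl4 over Retnlg cells.

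With class totals alone in place of TMM, endothelial-like cells had 4 members higher, lining cells 5 higher, and Ccl3/Ccl4 cells 0 members lower, with 373 genes higher and 86 lower. Sign changes were Hk2 (-0.13) and Bnip3 (-0.10) in neutrophil-like over monocyte/macrophage-like cells, Pfkfb3 (0.22) in endothelial-like over fibroblast-like cells, Hk2 (0.22) and Egln3 (0.22) in Ccl3/Ccl4 over Retnlg cells, and Ldha (0.087) in mural-like over endothelial-like cells. With no filter on low counts endothelial-like cells had 1 member higher, and Hk2 (-0.034) and Bnip3 (-0.0087) in neutrophil-like cells, Ldha in fibroblast-like (0.044) and osteoclast-like cells (-0.050) and Slc2a1 in endothelial-like cells (-0.013) changed sign.

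Classes from clusters gave 9 members higher and 2 lower in lining cells and 6 higher in Spp1/Arg1 cells, with sign changes for Ldha in fibroblast-like (0.068), Pfkfb3 in endothelial-like (0.0068), and Hif1a (0.25) and Pfkfb3 (0.020) in Spp1/Arg1 cells. Subtracting free RNA gave 5 higher in endothelial-like, 9 in lining and 6 in mural-like cells, and 2 higher and 1 lower in Spp1/Arg1 cells, with Ldha at 0.027 in fibroblast-like and -0.074 in osteoclast-like cells. The stricter gate gave 5 higher in lining cells, 3 higher in Spp1/Arg1 cells, and 2 lower in Ccl3/Ccl4 cells with 285 genes higher and 285 lower, and Ldha was -0.026 in osteoclast-like and Egln3 0.28 in Ccl3/Ccl4 cells. DESeq2 called 2 members higher and 242 genes lower in Spp1/Arg1 cells and 70 genes higher in Ccl3/Ccl4 cells.

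Without cycling cells endothelial-like cells had 1 member higher, and Egln3 was -0.033 in lining cells. With doublets kept Pfkfb3 was 0.0089 in endothelial-like cells, Egln3 -0.022 in lining cells, and Hk2 0.064 and Egln3 0.060 in Ccl3/Ccl4 cells.

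Leaving out each replicate gave 2 to 4 members higher in endothelial-like over fibroblast-like cells, 0 to 1 higher in osteoclast-like cells, 1 to 2 lower in lining cells and 1 to 2 higher in Spp1/Arg1 cells. Log2 changes ranged from -0.066 to 0.060 for Ldha in fibroblast-like, -0.019 to 0.11 for Slc2a1 and -0.057 to 0.0086 for Pfkfb3 in endothelial-like, and -0.081 to 0.090 for Ldha in osteoclast-like cells. They ranged from -0.11 to 0.25 for Egln3 in lining cells, and from -0.089 to 0.040 for Hk2 and -0.080 to 0.039 for Egln3 in Ccl3/Ccl4 cells.

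Depth limits the rare classes and the scarce genes: levels under about 10 CPM rest on few UMIs in classes of under 100 cells, and levels at or under the free RNA limit cannot be assigned to the class.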

Other observations

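Sublining fibroblast-like cells took more of their collagen prolyl 4-hydroxylase UMIs from P4ha2 (57.2, 59.5 and 60.9% in replicates 1, 2 and 3) than lining fibroblast-like cells (46.3, 45.2 and 50.8%), without overlap. Pfkfb4 showed the opposite order within its pair, with 59.5, 68.2 and 57.4% in lining and 41.8, 48.9 and 41.7% in sublining fibroblast-like cells. Neither difference in shares was tested.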
